A study of Mus musculus with 2 samples.

Results

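The neuropeptide and gut peptide precursor genes Npy, Cck, Gast, Vgf, Penk, Pdyn, Tac1, Gal, Nts and Vip were followed in mouse pancreatic islets on 2 Affymetrix arrays. They were taken as every probe set that the platform annotation assigns to 1 of these 10 genes and to no other gene. This gave 11 probe sets of the 34945 that name a single gene, and 10 genes of 18193. The list was drawn up with the 2 arrays already known to differ at Npy and Cck, so the differences below are described and not tested.

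The study looked for target genes of the zinc finger factor ZBTB20 in beta cells, the insulin-producing cells of the islet. The control array carried RNA from islets of wildtype littermates. The other array carried RNA from islets of mice labelled as having a beta cell-specific ZBTB20 knockout. Both groups were adults of 2 to 3 months on a mixed background, and their hand-picked islets had been kept in culture overnight before freezing. The Cre line, the deleted part of the gene and the number of animals behind each array are not given in the sources used here. With 1 array in each group there was no replicate error for any value, and the fold differences compare 2 RNA preparations.

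Neuropeptides are cut from larger precursors by prohormone convertases, trimmed, often amidated, and stored in dense-core granules that are released with calcium. Neurons and the endocrine cells of gut and islet use this machinery alike, and several peptides of nerves are also made by islet cells. NPY restrains insulin release and is known from immature beta cells, whereas CCK enhances insulin release and has been linked to beta cell survival. Many precursor genes respond to cAMP and calcium through CREB family factors, and the repressor REST keeps several of them silent outside neurons and endocrine cells.

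The values are MAS5 signals, which summarise a probe set's perfect match and mismatch probes on a linear scale. The median signal of each array, 21.6 in control and 21.7 in knockout-labelled islets, served as a floor. Lower signals were raised to it before a ratio was taken, and a ratio with 1 raised signal is a bound, written as "at least". Signals of different probe sets were not compared as amounts of RNA. They were used to pick the brightest probe set of a gene, to find probe sets of similar signal, and in sums over marker lists. Bright probe sets weigh most in such sums. Log2 signals of 10450 genes over the floor on both arrays correlated with r = 0.97 between the arrays, a correlation across genes. Taken without the floor, the raw signals of the 9 Zbtb20 probe sets gave ratios of knockout-labelled over control from 0.55 to 1.46. Of these, 5 were below and 4 above 1, and signals under the floor were not set apart. The Zbtb20 probe sets therefore do not check the label.

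Npy and Cck were the members with higher signals in knockout-labelled islets, each by more than 11-fold, while Tac1 and Nts were lower by close to 3-fold. Pdyn and Gal were higher and Vgf lower, each by less than 2-fold. Vip and Penk had only bounds, of under 2-fold, and Gast had no ratio, so the size of any difference at these 3 genes is not determined. Of the 11 probe sets, 7 were over the floor on both arrays, 2 on the control array only, and 2 on neither. Among the 9 with a ratio or a bound, the higher side of the 2-fold limit held 2 and the lower side 2. Over all 21257 single-gene probe sets with a value, 1.88% lay past the limit upward and 1.29% downward. The members were chosen on this same contrast, so nothing is read from that difference in share. Their median log2 ratio was -0.34, beside 0.0032 over all single-gene probe sets with a value. This median is the bound of Penk and not a measured ratio. It moved with the floor, to -0.46 at the 30th percentile and 0.087 at the 70th.

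**Figure D1:**
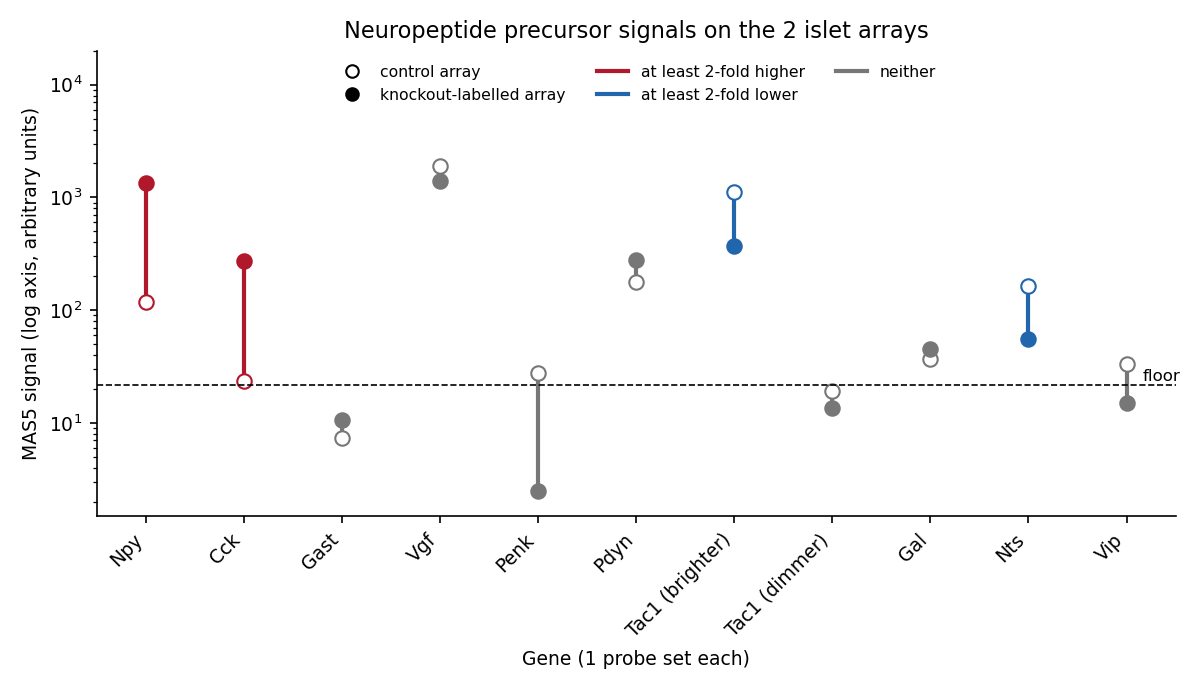
MAS5 signal (log axis, arbitrary units) of each of the 11 probe sets on the control array (open circles) and the knockout-labelled array (filled circles), with the floor dashed. The lines of Npy and Cck run upward from control to knockout-labelled islets, those of the brighter Tac1 probe set and of Nts run downward, and Gast and the dimmer Tac1 probe set lie under the floor.

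Npy encodes neuropeptide Y, a widespread inhibitory peptide of neurons that islet cells also make. Its 1 probe set, 1419127_at, gave 118 on the control array and 1339.9 on the knockout-labelled array. The second signal was 11.4-fold higher, a log2 ratio of 3.51. Among the 500 probe sets with the nearest mean signal, the central 95% of log2 ratios ran from -0.63 to 0.63. Npy therefore lay far outside the spread that probe sets of similar brightness showed between these 2 arrays. That spread describes how 2 preparations differed and leaves out variation between animals.

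Cck encodes cholecystokinin, the gut and brain peptide that drives gallbladder contraction and pancreatic enzyme release. Its probe set, 1419473_a_at, gave 23.5 on the control array and 272.6 on the other, 11.6-fold higher (log2 ratio 3.54). Probe sets of similar mean signal had log2 ratios from -0.79 to 0.93 over their central 95%. The control signal sat just over the floor of 21.6, so the size of the Cck ratio depends on the floor. With the floor at the 70th percentile of each array the control signal is raised to it and the log2 ratio is a bound of at least 2.02, and with a pseudocount of 16 in place of a floor it was 2.87. Cck was thus barely over the middle of the control array and clearly above it on the other.

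Gast encodes gastrin, the close relative of CCK that is made in the stomach and, before birth, in the pancreas. Its signals of 7.4 (control) and 10.7 (knockout-labelled) were both under the floor, so no ratio is given. The Cck signal thus stood over the floor without its sister gene.

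Counted over all 10450 genes over the floor on both arrays, Cck had the 4th and Npy the 5th highest ratio. The places of Cck and of Aldh1a3 below rest on control values of 23.5 and 22.2, barely over the 21.6 used as floor, and are not exact. Apart from each other, the genes with log2 ratios nearest to theirs were Crispld2, a secreted protein gene (3.60, from 92.9 to 1124.1), and Aldh1a3, a retinaldehyde dehydrogenase gene (3.87, from 22.2 to 324.1). This likeness rests on 2 arrays and on a single ratio per gene.

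The start sites of Npy and Cck are shown because these genes had close ratios, 1 for each gene, and their promoters can be set side by side. Each line gives the 250 bases before the RefSeq start site (GRCm38.p6), read 5′ to 3′ on the gene's strand. The Npy stretch is chr6:49822460-49822709 on the plus strand and the Cck stretch is chr9:121495695-121495944 on the minus strand. Capitals mark TGACG or its reverse complement CGTCA, the core of the cAMP response element.
Npy: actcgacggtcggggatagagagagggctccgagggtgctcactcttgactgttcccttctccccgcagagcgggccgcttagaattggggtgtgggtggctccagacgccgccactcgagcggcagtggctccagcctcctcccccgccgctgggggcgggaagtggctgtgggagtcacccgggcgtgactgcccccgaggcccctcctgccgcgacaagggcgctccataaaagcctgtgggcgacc
Cck: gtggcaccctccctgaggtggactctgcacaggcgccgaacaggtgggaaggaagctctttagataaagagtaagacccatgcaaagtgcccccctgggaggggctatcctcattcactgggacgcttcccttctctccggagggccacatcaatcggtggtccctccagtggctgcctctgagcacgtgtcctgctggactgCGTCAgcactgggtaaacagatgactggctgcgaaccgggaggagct
The Cck window held 1 such core, whose first base lay 47 bases before the start site, and 1 CACGTG E-box. The window of Npy held neither. Of 32851 mouse promoter windows of the same 300 bases (250 before and 50 after a start site), 20.8% held the core on either strand and 7.15% held CACGTG. The 2 genes shared no motif of those searched, and a match or its lack says only which letters are in these windows.

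Tac1 encodes the precursor of substance P and neurokinin A, the tachykinins of sensory and enteric nerves. Its brighter probe set, 1416783_at, gave 1110.4 on the control array and 374.3 on the knockout-labelled one. This was 2.97-fold lower (log2 ratio -1.57), against a central 95% from -0.68 to 0.54 among probe sets of similar signal. The dimmer probe set, 1431883_at, gave 19.2 and 13.6, both under the floor. The Tac1 difference therefore rests on 1 probe set.

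Nts encodes neurotensin, a peptide of gut endocrine cells and neurons, together with neuromedin N. Its probe set, 1422860_at, gave 163 on the control array and 55.7 on the other, 2.93-fold lower (log2 ratio -1.55). The central 95% at similar signal ran from -0.69 to 0.86. With the floor at the 70th percentile the knockout-labelled signal of Nts is raised to it and the log2 ratio is a bound of at most -1.25. Tac1 and Nts thus showed close ratios on the lower side, at the 15th and 16th lowest of the 10450 genes.

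The same stretches of the pair on the lower side are printed for comparison with Npy and Cck. The Tac1 stretch is chr6:7554811-7555060 on the plus strand and the Nts stretch is chr10:102490419-102490668 on the minus strand, with capitals as above.
Tac1: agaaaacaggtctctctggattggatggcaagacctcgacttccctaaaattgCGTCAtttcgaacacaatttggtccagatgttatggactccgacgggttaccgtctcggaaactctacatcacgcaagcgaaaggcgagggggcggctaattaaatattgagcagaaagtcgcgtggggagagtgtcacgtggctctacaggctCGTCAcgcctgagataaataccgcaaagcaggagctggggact
Nts: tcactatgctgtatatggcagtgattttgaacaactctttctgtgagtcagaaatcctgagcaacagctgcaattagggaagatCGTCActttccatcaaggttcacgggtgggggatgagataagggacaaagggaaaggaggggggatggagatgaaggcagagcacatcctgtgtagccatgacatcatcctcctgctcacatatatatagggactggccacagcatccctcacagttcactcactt
Tac1 had 2 cores, with first bases 197 and 43 bases before the start site, and 1 CACGTG E-box. Nts had 1 core, 166 bases before the start site, and 1 AP-1 site (TGANTCA), found in 7.81% of all windows. Cores were thus present in Cck on the higher side and in both genes on the lower side. RefSeq windows were at hand for 8 of the 10 genes, in 9 windows, since Pdyn has 2. The core was present in 5 of the 8 genes, Gal and Vip being the others. The full element TGACGTCA, found in 1.79% of all windows, was in none of the 9. TATAAA was present in Gast and Vip and in 13.6% of all windows. The C and G content of the 9 windows ran from 41.7% for Vip to 68% for Npy, around a median of 52.7% over all windows.

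**Figure D2:**
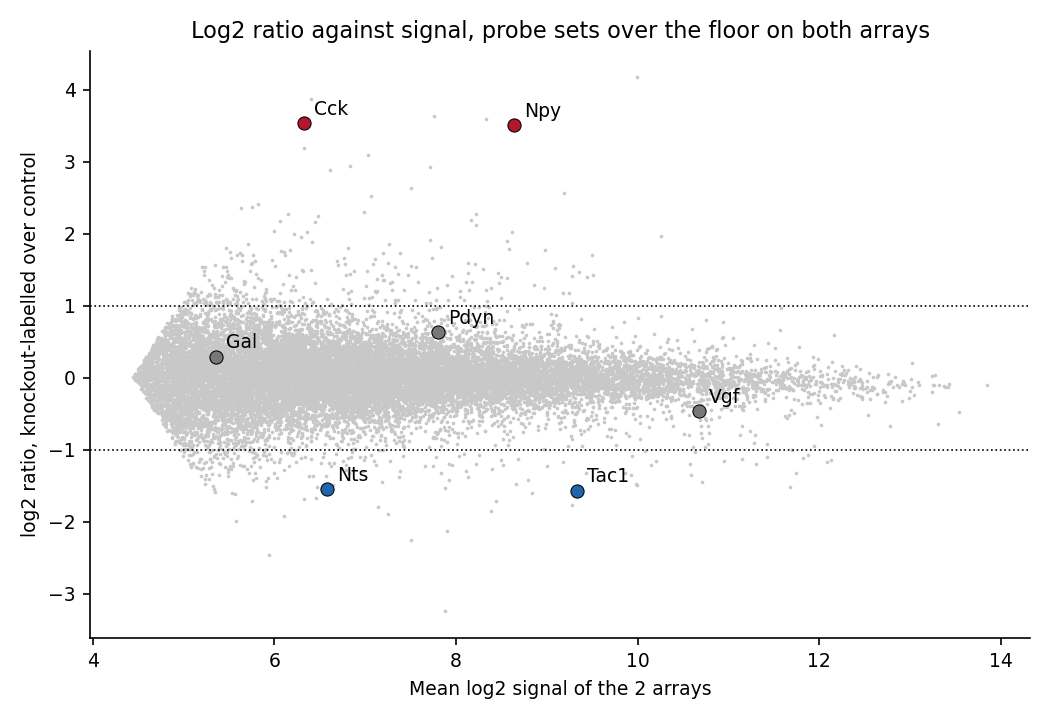
Log2 ratio of knockout-labelled over control against the mean log2 signal of the 2 arrays, for single-gene probe sets over the floor on both arrays (grey) and the 7 neuropeptide probe sets among them (coloured; red higher, blue lower, dark grey within 2-fold, which is dotted). Npy and Cck stand above the cloud at 3.51 and 3.54 and Tac1 and Nts below it at -1.57 and -1.55, while Gal, Pdyn and Vgf lie within it or at its edge.

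Vgf, Pdyn and Gal, all over the floor on both arrays, differed by less than 2-fold. Vgf, whose product is a granin-like granule protein and source of several peptides, gave 1918.6 and 1393.3, control first. Its log2 ratio of -0.46 lay inside the central 95% at similar signal, -0.72 to 0.41. Pdyn, the precursor of the dynorphins, went from 178.4 to 277.1. It was 1.55-fold higher (log2 ratio 0.64), also inside its range of -0.75 to 0.74. Pdyn had the largest ratio below the 2-fold limit among the members over the floor on both arrays, and Nts the smallest above it.

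Gal encodes galanin, a sympathetic nerve peptide that inhibits insulin release. Its signals were 36.9 and 45.2, a log2 ratio of 0.29, where probe sets of similar signal spread from -1.07 to 1.05. At this brightness a 2-fold difference would not have stood out from the array's own spread.

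Vip and Penk were over the floor in control islets only. Vip encodes vasoactive intestinal peptide, a transmitter of islet nerves that raises cAMP and insulin release. The array signals were 33.3 for control and 15.1 for knockout-labelled RNA, at least 1.53-fold lower. Penk, the enkephalin precursor, had signals of 27.4 and 2.5, at least 1.26-fold lower. Its bound is small since the control signal was only just over the floor. With the floor at the 30th percentile both genes passed 2-fold, with a log2 ratio of -1.14 for Vip and a bound of at most -1.67 for Penk. A signal of this size can be background on both arrays, and no detection calls were at hand.

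**Figure D3:**
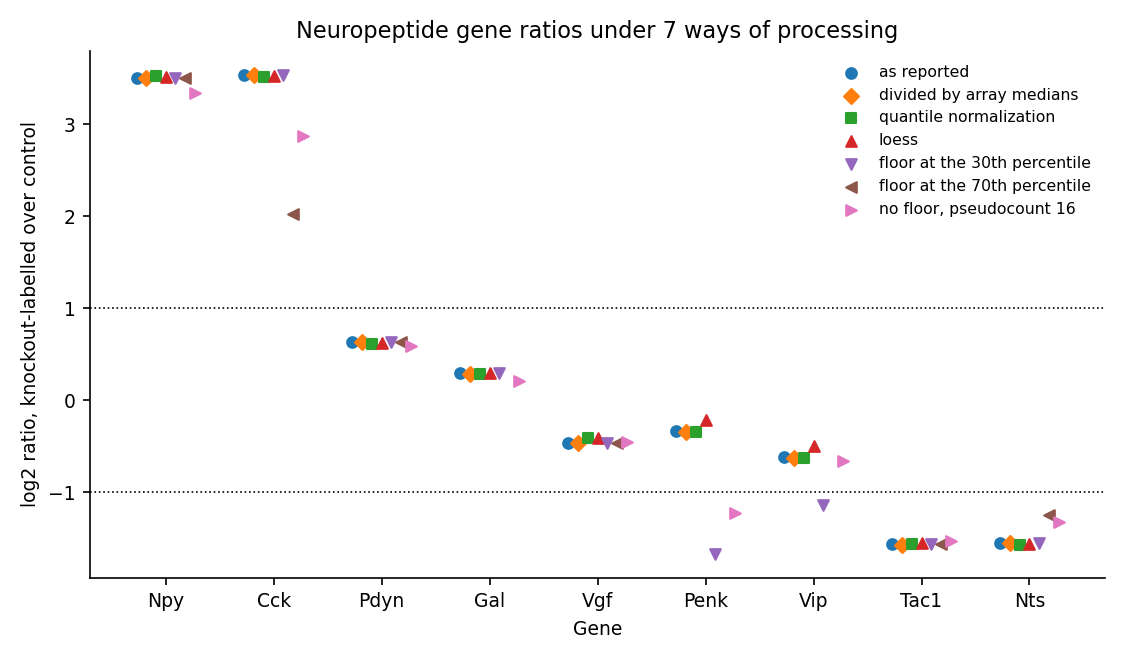
Log2 ratio of knockout-labelled over control for 9 of the genes under the reported setting and 6 other ways of scaling or flooring the signals, with the 2-fold limits dotted. Npy stays between 3.34 and 3.52 and Tac1 between -1.58 and -1.53, Cck has only a bound of 2.02 with a higher floor, Penk and Vip pass -1 with a lower floor and Penk also with a pseudocount; genes under a floor on both arrays have no point there.

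The receptors for these peptides were mostly under the floor. Of 23 symbols listed, 22 had a single-gene probe set, and for 15 of these the brightest probe set was under the floor on both arrays. Over all 18193 genes, the brightest probe set was over the floor on at least 1 array for 11802. These 15 included all 5 NPY receptor genes (Npy1r, Npy2r, Npy4r, Npy5r and Npy6r), both CCK receptor genes (Cckar and Cckbr) and the opioid receptor genes Oprm1, Oprd1 and Oprk1. Receptors for the 2 peptides whose precursor signals were at least 2-fold higher therefore gave no ratio on these arrays. Of the 7 receptor genes with a value, 2 passed the 2-fold limit upward and 1 downward. The median of the log2 ratios was -0.27, which is the bound of Tacr2. Over all 11802 genes with a value, each by its brightest probe set, 1.82% passed it upward and 1.44% downward, around a median of 0.

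Tacr3, the neurokinin B receptor gene, was lower on all of its 3 probe sets. The brightest, 1440803_x_at, went from 134.1 to 35.4, 3.79-fold lower, and 1437029_at from 82.8 to 27, 3.07-fold lower. The dimmest went from 30.5 to 10, at least 1.41-fold lower. Tacr3 and the precursor gene Tac1 were both lower, though substance P acts mainly through the product of Tacr1, whose signals of 4.2 and 1.6 were under the floor. Tac2, which encodes the preferred ligand of the Tacr3 receptor, was also under it, at 1.2 and 1.5. Tacr2, the neurokinin A receptor gene, went from 26.1 to 14.8, at least 1.20-fold lower.

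Galr1, a receptor gene for galanin, was 2.05-fold higher on its brightest probe set, from 111.9 to 229.7. Another gave 77.3 and 120.4, 1.56-fold higher, and the dimmest was under the floor. The mean over the measured probe sets was under the 2-fold limit. Galr1 was thus higher on both measured probe sets, while the Gal precursor itself was within its array spread.

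Sorl1, which encodes a sorting receptor of the Vps10p family that can bind neurotensin, was higher on 3 of 3 probe sets. Their signals went from 394 to 1091.5, from 254.3 to 762.7 and from 60.4 to 177.7, which is 2.77-fold, 3.00-fold and 2.94-fold higher. Its relative Sort1, the sortilin gene, had signals of 262.1 and 211.1 on the brightest probe set, with log2 ratios of -0.31, 0.018 and at least 0.47 on its 3 probe sets. The 2 sorting receptors thus differed in their ratios, and the neurotensin receptor genes Ntsr1 and Ntsr2 were under the floor. Vipr1, a VIP receptor gene, had a log2 ratio of -0.44.

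**Figure D4:**
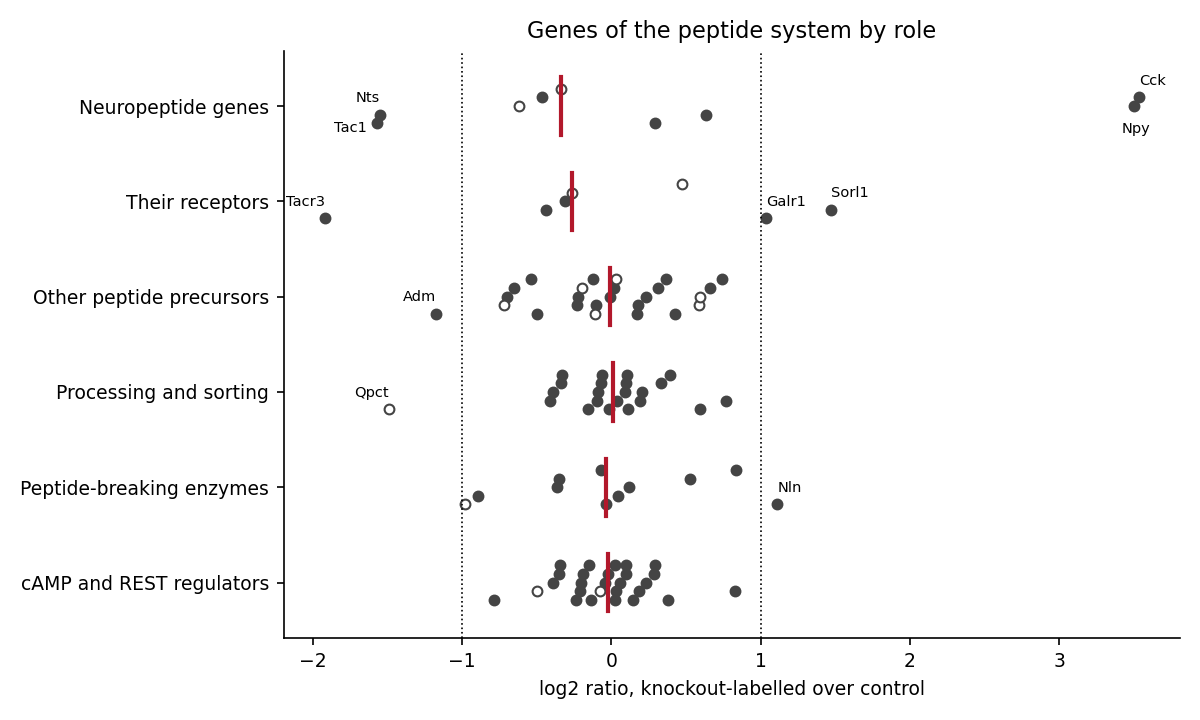
Log2 ratio of knockout-labelled over control for each gene with a value (its brightest probe set), grouped by role; open circles are bounds, red bars are group medians and dotted lines mark 2-fold. Npy and Cck lie near 3.5 while the medians of the groups lie between -0.34 and 0.012, and the labelled points are the genes past 2-fold.

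Of 22 processing and sorting genes with a value, none was at least 2-fold higher, 1 passed the limit on the lower side, and the median log2 ratio was 0.012. These counts stand beside shares of 1.82% higher and 1.44% lower over all genes, and so few calls say nothing particular about this list. The lower gene was Qpct, the glutaminyl cyclase that closes the first residue of peptides such as neurotensin, with signals of 60.9 and 8.3, at least 2.81-fold lower. Pcsk1, the prohormone convertase gene, went from 1505.4 to 2563.2, 1.70-fold higher, and Ctsl, a cathepsin gene, from 3738.2 to 5636.4, 1.51-fold higher. Named after their values were seen, Pam, the amidating enzyme gene needed for active NPY and CCK, had signals of 1374 and 1571.2, and the tyrosine sulfotransferase genes Tpst1 and Tpst2, whose products can sulfate CCK, had log2 ratios of -0.16 and 0.10. The genes for amidation and sulfation thus did not follow the ratios of Npy and Cck.

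Among 11 peptide-breaking enzyme genes with a value, Nln alone was at least 2-fold higher and none passed the limit on the lower side (median log2 ratio -0.037), beside 1.82% and 1.44% over all genes. Nln encodes neurolysin, which cleaves neurotensin, and went from 28.3 to 61.2, 2.16-fold higher, with 24.5 and 32.9 on its other probe set. The aminopeptidase genes Anpep and Enpep had log2 ratios of at most -0.98 and of -0.89. Ace, the angiotensin-converting enzyme gene, had 0.84 on its brightest probe set and -0.69 on the other.

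The other peptide precursors were read in the same way. Of 59 symbols, 47 were measured and 25 had a value. None was at least 2-fold higher and Adm, the adrenomedullin gene, was the only one at least 2-fold lower (82.3 in control and 36.4 in knockout-labelled islets), with a list median of -0.0089, counts that are close to the 1.82% and 1.44% over all genes. Pnoc, the nociceptin precursor and a relative of Pdyn and Penk, had the highest log2 ratio at 0.74, from 135.8 to 227. Edn1, the endothelin gene, had at most -0.72 and Apln, the apelin gene, -0.70. The relatives of Npy, named for their family, were at 6862.8 and 5886.3 for Pyy and at 12702.3 and 8094.7 for Ppy. Both were thus lower where Npy was higher, by 1.17-fold and 1.57-fold, and signals of that height can be compressed.

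Regulators through which peptide genes are commonly controlled were listed next. None of 27 measured genes of the cAMP, calcium and REST list was past the limit in either direction, which is close to the 1.82% and 1.44% over all genes, and the median log2 ratio was -0.022. The nuclear receptor genes Nr4a1 and Nr4a2, both induced by cAMP and calcium, went opposite ways, at 0.83 and -0.79. Creb1 and Rest, named after their values were seen, had log2 ratios of -0.022 and 0.028 on their brightest probe sets, with Rest at 25.4 and 25.9, next to the floor. Other Creb1 probe sets with a ratio or bound had -0.08, 0.50, 0.33 and 0.78.

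Genes known from immature beta cells were mixed. Of 9 with a value, 3 passed 2-fold upward and 1 downward, beside 1.82% and 1.44% over all genes, and their log2 ratios had a median of -0.38. This list was chosen with values of Aldh1a3, Nnat and Igf2 already known. Beside Aldh1a3, the higher genes were Nnat, an imprinted gene for a small membrane protein (from 110.8 to 319.8), and Dlk1, a Notch-related surface protein gene (from 32.6 to 71.3). Igf2 was lower (from 66.7 to 26.2). Neurog3, the endocrine progenitor factor gene, had signals of 34.6 and 26.6. The list thus did not move one way with Npy and Cck.

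Genes flanking the members on the chromosome were read from the RefSeq order, a comparison chosen after the member values were known. Next to Npy, Mpp6 had a log2 ratio of -0.75 and Stk31 was under the floor on both arrays. Next to Cck, Trak1 had -0.064 and Lyzl4 was under the floor. Beside Tac1, Asns had 0.011 and Sdhaf3 0.11, and both neighbours of Nts, Mgat4c and Rassf9, were under the floor. No flanking gene with a value thus came near the ratio of its peptide gene at these 4 places, those of the members past 2-fold. Members with smaller differences were mixed. Next to Vgf, at -0.46, Ap1s1 had -0.47 and Plod3 0.011. Next to Gal, at 0.29, Ppp6r3 had 0.19. Next to Pdyn, at 0.64, Sirpa had 0.021 and Stk35 -0.025.

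The arrays measured mixtures of cells, and for every gene fewer cells of a type and less RNA per cell cannot be told apart. Hormone genes matched the islet label, with Ins2 at 9194.3 and 7785.8 and none of 10 measured endocrine markers past 2-fold. Hormone signals of this height can be compressed. Over all genes 1.82% were at least 2-fold higher and 1.44% lower, so a count of none in this or the next lists says nothing particular about them. Neuron markers had 16 of 25 measured genes with a value, none past 2-fold, and a median log2 ratio of 0.10. The summed signals of these markers were 2975 in control and 3223 in knockout-labelled islets, of which Snap25 alone gave 1239.4 and 1340.8. Some of them, such as Prph, Elavl3, Chat and Slc18a3, were under the floor on both arrays. Others, such as Dbh (32.1 and 44.3), Nefm (214.9 and 218.1) and Nefh (52.1 and 65.6), were over it on both. Th, the catecholamine enzyme gene, had signals of 204.2 and 133.5. Of the 16, 12 had a log2 ratio or bound above 0 and 4 below, where the median over all genes was 0. The larger ones above 0 included Tubb3, a neuronal tubulin gene (46.5 and 83.8), and Uchl1, a ubiquitin hydrolase gene (259.7 and 403). Elavl4, an RNA-binding protein gene, gave 71.4 and 100.3. Others were close to 0, such as Nefm at 0.021, Nos1 at 0.024 and Stmn3 at 0.091. Below 0 were Th, Map2 (-0.18), Stmn2 (at most -0.10) and Gap43 (at most -0.39). Of 9 measured Schwann cell markers, 5 had a value and none was past 2-fold on its brightest probe set, with summed signals of 426.2 and 459.4. S100b and Gfap were under the floor, and Sox10 (22.1 and 28.6) and Mbp (230.6 and 279) over it on both arrays. Other Mbp probe sets with a value had log2 ratios of 1.70 and 1.05, past 2-fold, and of 0.29, 0.31, 0.14 and 0.50. Enteroendocrine and epsilon cell markers, a list that holds Cck, Gast and Nts themselves, had no other gene past 2-fold among 8 with a value. Their summed signals of 17224.8 and 16632 came mostly from Chga (9766.1 and 10037.6) and Pyy (6862.8 and 5886.3), so the sum says little about the rest. Ghrl, the ghrelin gene that defines epsilon cells, had signals of 20 and 8, under the floor.

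Acinar and macrophage markers moved with the comparison. Acinar markers had 14 of 25 genes with a value at least 2-fold lower and 1, Prss3, which has close paralogs, at least 2-fold higher. The shares over all genes were 1.44% lower and 1.82% higher. Acinar signals summed to 58873.5 in control and 31386.6 in knockout-labelled islets, a ratio of 0.53. The log2 ratios of single acinar markers had a median of -1.07. They ran from -3.24 for Reg2 to 2.57 for Prss3, with Reg3b at -2.13, Reg1 at -1.49 and Pnliprp1 at -1.48. So wide a range holds most peptide gene values as well, so nothing is read from it for Tac1 (-1.57) or Nts (-1.55). Macrophage markers had 4 of 19 genes with a value at least 2-fold higher and none lower, beside the same shares over all genes, with summed signals of 2363 and 3490. The part of acinar cells and macrophages in the differences of Npy, Cck, Tac1 and Nts was not tested.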

How the data were processed

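Islet RNA of 2 samples was measured on 1 Affymetrix array each. Intensity values are linear MAS5 signals as the authors deposited them; the submitters' processing notes name MAS5, with version, scaling target and detection calls not given in the sources used here. Its table held 45037 probe sets, with signals from 0.1 to 15324.3. Genes were named through the platform annotation (34945 probe sets with 1 gene, 932 with several, 9160 unnamed), and symbols were read through RefSeq by Entrez identifier. Signals were used without further normalization, with a floor at the 50th percentile of each array and a limit of 2-fold. Genes of other lists were represented by their brightest probe set. No statistical test between the groups was run, since each group has 1 array, and the single array limits the precision of every value. To describe the spread between the 2 arrays, log2 ratios of the 500 probe sets nearest in mean signal were used. That spread mixes measurement noise with differences between the 2 preparations and is not an error for any gene. Among probe sets of 1 gene the median SD was 0.23 over 5476 genes, which served as the spread when settings were compared. The members and gene lists were chosen with earlier results of these data known. Named genes are the members, genes past 2-fold and up to 4 more from each list, and the 3 genes nearest in ratio to Npy and Cck. Other receptors, relatives, regulators, neighbours and cell type markers were added after their values were seen. The ratio and calling step was tested on simulated data with planted fold changes. Promoter windows came from RefSeq (GRCm38.p6). Analyses used Python 3.11.15, numpy 2.4.6, pandas 2.3.3 and statsmodels 0.14.6.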

Additional observations from a re-analysis of the deposited data

How the results depend on the processing

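Dividing by array medians, quantile normalization and loess each moved the log2 ratios of the 9 peptide genes with a value by at most 0.0067, 0.051 and 0.12, and left 2 peptide genes on each side of the 2-fold limit. The floor mattered more. With it at the 30th percentile, 4 peptide gene probe sets were past the limit on the lower side, 4 receptor genes on the higher side, and 3 other precursor genes on the higher and 2 on the lower side. With it at the 70th percentile, the log2 ratio of Cck was a bound of at least 2.02, the median over the peptide genes 0.087, and 0 receptor, 0 other precursor and 0 processing genes were lower. With no floor and a pseudocount of 16, Cck was at 2.87, 3 peptide gene probe sets were lower, with Penk at -1.23, and 0 other precursor genes were lower. At a limit of 1.5-fold, 4 other precursor genes were higher and 4 lower, and 2 processing genes were higher. At 3-fold, 0 peptide gene probe sets were lower, 0 receptor genes higher, and 0 other precursor and 0 processing genes lower. With the mean over probe sets, 1 receptor gene was higher. Over all single-gene probe sets, 400 were higher and 274 lower, against 1387 and 1297 under the 30th percentile floor, and 138 and 90 under the 70th. No probe set named a peptide gene among several. No paired analysis was possible because each group has 1 array, and for the same reason no array could be left out. Near the floor, the signal limits what can be read for Gast, Penk, Vip, Gal and the control level of Cck.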
